A study of Homo sapiens with 60 samples.

Results

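The proteasome genes of HepG2, an established human hepatocellular carcinoma cell line, were followed by RNA sequencing across water extracts of medicinal herbs and herbal formulas. Members were the protein-coding genes whose symbol begins with PSMA, PSMB, PSMC, PSMD, PSME, PSMF or PSMG and a number, and 50 of the 60675 genes in the table met that rule. Another 51 genes with such a symbol were not annotated as protein-coding and were left out. Cells were exposed for 24 h to 20, 100 or 500 µg/mL of an extract of 1 of 2 herbs, Saposhnikoviae Radix or Menthae Herba, or of 1 of 4 formulas, Okbyeongpung-san, Soyo-san, Guibi-tang or Saengmaek-san, with 3 libraries per extract and dose. Soshiho-tang was given at the same 3 doses with 1 library each, and the vehicle was DMSO with 3 libraries, at 0.1% in the sample labels and at 2% in the series text. All 60 libraries come from 1 cell line, and nothing in the labels says whether the libraries of a group were separate cultures. The p-values therefore measure the spread between these libraries. For each gene that spread, and so each SE, was pooled over all groups in the fit, not taken from the groups compared alone.

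The proteasome is the protease that degrades most ubiquitin-tagged proteins. Its core is a barrel of outer alpha rings, which gate entry, and inner beta rings, in which PSMB5, PSMB6 and PSMB7 carry the active sites. The cap is built from a base with the PSMC ATPases, which unfold substrates, and a lid, whose PSMD14 removes ubiquitin. Interferon induces the immune subunits PSMB8, PSMB9 and PSMB10, which take the places of PSMB5, PSMB6 and PSMB7 in newly built cores, and the activator genes PSME1 and PSME2, and this form favours peptides that fit MHC class I molecules.

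Library totals ranged from 20446542 to 32386486 expected counts. The 10 hepatocyte markers were all tested and summed to between 38810 and 52110 CPM (counts scaled to the same effective library size), while PTPRC, CD3E, DCN and KDR, which mark leukocytes, fibroblasts and endothelium, had at most 3 counts in every library. The vehicle libraries carry a first code number of their own in the labels, as do the extracts taken in pairs, so code and treatment cannot be told apart in any comparison with vehicle. Vehicle replicate 1 differed from the other two by a chi-square per degree of freedom of 17.4 and 14.3, against 3.22 between those, where replicate pairs of all groups ranged from 2.28 to 19.6. The non-coding RNA MALAT1 split the libraries into 31 at 174.5 to 282.4 CPM, which held all libraries of vehicle, of Saposhnikoviae Radix and of Menthae Herba, and 29 at 386.8 to 552.1 CPM, among them all Soyo-san and Okbyeongpung-san libraries. Each Saengmaek-san and Guibi-tang group held libraries of both classes. With Guibi-tang, 1 library at 500 µg/mL and 2 at 20 µg/mL lay in the higher class. A fit with this class as a covariate was run beside each comparison. Vehicle and both herbs lie wholly in the lower class, so the covariate can hardly change comparisons among them. For Soyo-san and Okbyeongpung-san against vehicle, class and treatment coincide. Their adjustment rests on the Saengmaek-san and Guibi-tang groups, which hold both classes.
Markers of other cell types moved with some extracts. The 6 leukocyte markers summed to 2550 to 2678 CPM at 500 µg/mL of Menthae Herba, 1810 to 1916 CPM at 500 µg/mL of Soyo-san and 1315 to 1336 CPM at 500 µg/mL of Guibi-tang, against 974.6 to 1021 CPM in vehicle. With Menthae Herba nearly all of that sum was LYZ, at 2584 ± 72 CPM, against 939 ± 27 CPM in vehicle (SD, n = 3 each). The hepatocyte markers summed to 44080 to 45720 CPM with Soyo-san and 42060 to 44780 CPM with Guibi-tang at that dose, against 47800 to 52110 CPM in vehicle. The 5 fibroblast markers summed to 25.0 to 25.8 CPM with Menthae Herba and 13.1 to 14.6 CPM in vehicle, mostly PDGFRB. Their part in the results was not tested.

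The promoters of 5 members are shown. They are PSMB9 and PSME2, which were lowest with Menthae Herba, and PSMB10, the immune subunit called in no comparison. The others are PSMD14 and PSMD3, lid genes called higher in 12 and 6 of 18 comparisons with vehicle. PSMD13, also a lid gene, and PSMD2 were called higher in 11 and 9 of these 18. Both are not shown, and neither had a match to any motif counted below. Each promoter shown is the stretch of 250 bases before the start in RefSeq on GRCh38.p14, with 1 window taken per symbol. In PSMB9 (chr6:32853942-32854191, plus strand), PSME2 (chr14:24146611-24146860, minus strand) and PSMB10 (chr16:67936851-67937100, minus strand), capitals mark the antioxidant response element core TGACNNNGC and the interferon-stimulated response element core, which is GAAA and GAAA with any 2 bases between them, on either strand. In PSMD14 (chr2:161308175-161308424, plus strand) capitals mark CCAAT, with 2 matches that overlap, and in PSMD3 (chr17:39980557-39980806, plus strand) they mark TGACNNNGC and CCAAT.
PSMB9: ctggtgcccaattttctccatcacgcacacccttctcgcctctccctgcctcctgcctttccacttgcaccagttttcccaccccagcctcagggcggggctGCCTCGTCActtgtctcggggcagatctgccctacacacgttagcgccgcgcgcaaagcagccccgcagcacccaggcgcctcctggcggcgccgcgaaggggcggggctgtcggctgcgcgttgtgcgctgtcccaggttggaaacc
PSME2: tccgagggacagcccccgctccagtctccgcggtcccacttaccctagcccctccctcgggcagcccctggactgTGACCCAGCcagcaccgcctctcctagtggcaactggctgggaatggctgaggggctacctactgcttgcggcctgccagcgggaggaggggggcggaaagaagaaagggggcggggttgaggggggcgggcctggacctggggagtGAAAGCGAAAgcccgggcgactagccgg
PSMB10: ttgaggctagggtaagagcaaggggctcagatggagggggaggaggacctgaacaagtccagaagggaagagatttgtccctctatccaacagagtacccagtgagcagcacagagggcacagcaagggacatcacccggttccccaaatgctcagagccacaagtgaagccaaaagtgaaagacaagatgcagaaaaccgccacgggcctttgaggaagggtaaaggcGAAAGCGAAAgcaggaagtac
PSMD14: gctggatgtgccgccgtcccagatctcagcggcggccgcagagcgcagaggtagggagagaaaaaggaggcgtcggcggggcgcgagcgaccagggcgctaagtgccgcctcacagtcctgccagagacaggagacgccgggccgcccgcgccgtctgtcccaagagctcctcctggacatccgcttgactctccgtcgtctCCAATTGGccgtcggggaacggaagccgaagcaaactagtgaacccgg
PSMD3: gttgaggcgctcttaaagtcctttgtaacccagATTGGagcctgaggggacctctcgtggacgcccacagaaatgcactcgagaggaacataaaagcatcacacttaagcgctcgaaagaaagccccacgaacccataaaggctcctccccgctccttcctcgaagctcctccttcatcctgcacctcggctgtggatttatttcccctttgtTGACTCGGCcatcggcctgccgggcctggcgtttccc
Of the 50 members, 44 had a promoter in the RefSeq table. Over 250 bases before to 50 after the start, and on both strands, TGACNNNGC occurred in 13 of these 44 (29.5%), against 13.6% of the 27305 promoters in the table. CCAAT occurred in 21 (47.7%), against 35.7% of all, and the cAMP response element TGACGTCA in 0, against 1.98% of all. A further pair of motifs was added after the data were seen: the interferon-stimulated response element core occurred in 6 members (13.6%), against 3.65% of all, and the STAT element TTCNNNGAA in 5 (11.4%), against 7.88%. The interferon-stimulated response element matches lay in PSME1, PSME2, PSMB10, PSMA4, PSMB4 and PSMG4, and none was found in PSMB8 or PSMB9. A match is a string of letters and says nothing of binding.

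In vehicle cells most core and cap subunits were transcribed at higher levels than the immune subunits. Per kilobase of exon, PSMB5 was highest among the members at 151.9 CPM per kb, followed by PSMA7, an alpha ring subunit, at 92.8 and PSMB3, a non-catalytic beta subunit, at 88.3. PSME1 came next at 83.8 and PSME2 stood at 48.9, close to PSMB6 at 53.0, PSMB7 at 50.5 and PSMF1, named as an inhibitor of the core, at 45.5. The immune subunits were near the bottom of the order: PSMB8 had 6.96, PSMB10 6.74 and PSMB9 1.46 CPM per kb. The cap subunit PSMD6, at 5.90, and the alpha ring subunit PSMA2, at 5.79, lay below PSMB8 and PSMB10. The length used is that of all annotated exons of a gene, not of the transcripts present, so this order depends on the annotation. In CPM the order was the reverse, with PSMD6 at 53.8, PSMA2 at 30.9, PSMB8 at 20.9 and PSMB10 at 12.5.
PSMA8, a testis subunit, and PSMB11, a thymus subunit, had at most 1 and 2 counts in any library and did not pass the filter on low counts, which left 48 members tested. Reads of some members could be shared with overlapping genes: PSMB8-AS1 and PSMB9 cover 20.6% of the PSMB8 exons on the other strand, PSMB8-AS1 covers 5.7% of the PSMB9 exons on the same strand, NRDE2 covers 75.8% of the PSMC1 exons on the other strand, and 34.8% of the PSMB10 exons lie under another gene on the same strand. Other genes also cover 14.6% of the PSMA2 exons on the same strand and 20.0% on the other strand, and 24.7% of the PSMA1 exons on the same strand. The deposited counts were fractional in 59 of 60 libraries for PSMA2 and in 58 for PSMA1. The kit was directional per the labels, while the strand setting of the counting is not given in the sources used here.

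The inducible immunoproteasome genes PSMB9, PSME2, PSMB8 and PSME1 were lower at 500 than at 20 µg/mL of Menthae Herba. In the same comparison the scaffold subunit PSMD2, the activator PSME4 and the lid subunit PSMD13 were higher. Across members, 16 of 48 had an edgeR adjusted p under 0.05 (33.3%), close to the 32.1% of all 16644 genes. Of these, 7 were higher, where 16.3% of all genes were, and 9 were lower, where 15.8% of all genes were.
PSMB9, which takes the place of PSMB6, had 2.63, 2.18 and 2.43 CPM at 500 µg/mL, against 4.502, 4.945 and 4.726 CPM at 20 µg/mL. Every library at 500 µg/mL was below every library at 20 µg/mL. The log2 fold change was -0.96 ± 0.14 (SE; adjusted p = 1.9e-07, edgeR), a level 0.514 times that at 20 µg/mL.
PSME2, the beta subunit of the interferon-inducible activator, had 125, 133 and 122 CPM at 500 µg/mL, against 176, 183 and 167 CPM at 20 µg/mL. The groups did not overlap, and the log2 fold change was -0.47 ± 0.07 (SE; adjusted p = 8.6e-08, edgeR). Its partner PSME1 had 121, 130 and 128 CPM at 500 µg/mL, against 154, 165 and 148 CPM at 20 µg/mL, again without overlap, with a log2 fold change of -0.30 ± 0.07 (SE; adjusted p = 0.00066, edgeR).
PSMB8, which takes the place of PSMB5, had 18.7, 16.5 and 15.1 CPM at 500 µg/mL, against 21.9, 21.2 and 20.4 CPM at 20 µg/mL. All 3 libraries at 500 µg/mL were lower, and the log2 fold change was -0.33 ± 0.08 (SE; adjusted p = 0.0012, edgeR). PSMB10 differed in this: it had 12.2, 12.4 and 12.3 CPM at 500 µg/mL, against 14.9, 13.9 and 12.4 CPM at 20 µg/mL. The PSMB10 groups overlapped, with a log2 fold change of -0.15 ± 0.12 (SE; adjusted p = 0.33, edgeR), and PSMB10 was called in none of the 27 comparisons.

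**Figure D1:**
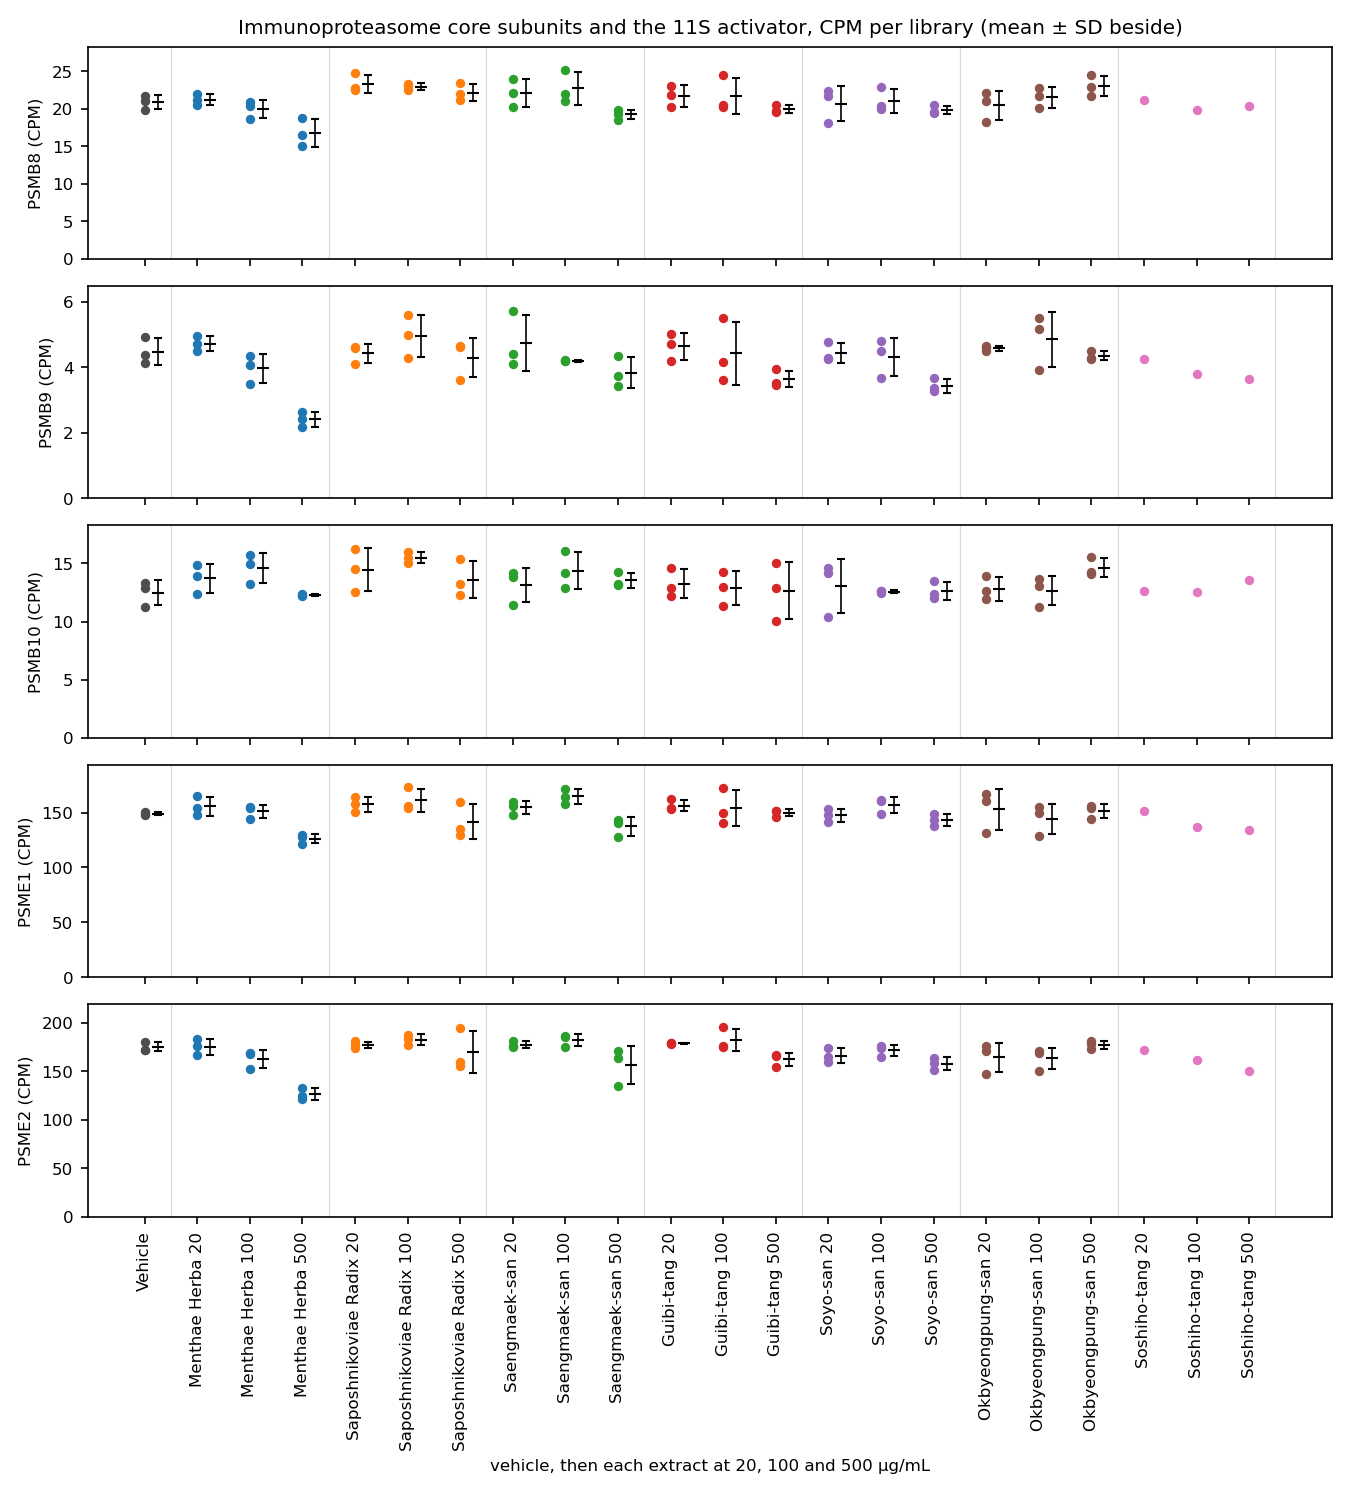
CPM of PSMB8, PSMB9, PSMB10, PSME1 and PSME2 in each library, by vehicle and then each extract at 20, 100 and 500 µg/mL; bars beside the points are mean ± SD of 3 libraries, and Soshiho-tang has 1 library per dose. The 3 Menthae Herba libraries at 500 µg/mL sit lowest for PSMB9, at 2.18 to 2.63 CPM, and for PSME2, at 122 to 133 CPM.

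The same genes were lower at 500 µg/mL of Menthae Herba than in vehicle. Of 48 members, 25 were called (52.1%), beside 39.8% of all genes, with 13 higher and 12 lower. PSMB9 averaged 2.41 ± 0.23 CPM at 500 µg/mL and 4.48 ± 0.41 CPM in vehicle (SD, n = 3 each), with a log2 fold change of -0.89 ± 0.14 (SE; adjusted p = 9.8e-07, edgeR). PSME2 averaged 126.5 ± 5.9 CPM and 175.3 ± 4.6 CPM in vehicle, with a log2 fold change of -0.47 ± 0.07 (SE; adjusted p = 6.1e-08, edgeR). PSMB8 and PSME1 were lower too, by log2 fold changes of -0.31 ± 0.08 and -0.24 ± 0.07 (SE; adjusted p = 0.0019 and 0.0052, edgeR). PSMB10 had a log2 fold change of -0.02 ± 0.12 (SE; adjusted p = 0.92, edgeR).
PSMB9 was not called at 20 or 100 µg/mL of Menthae Herba. At 100 µg/mL of Menthae Herba, PSMB9 had 4.07, 4.36 and 3.49 CPM, against 4.39, 4.93 and 4.12 CPM in vehicle. These groups overlapped, and the log2 fold change was -0.18 ± 0.13 (SE; adjusted p = 0.41, edgeR). In bulk RNA, fewer cells with a transcript and less of it per cell cannot be told apart.
Other genes of MHC class I antigen presentation moved in both directions. Of the 14 on that list, 4 were higher and 3 lower with Menthae Herba at 500 µg/mL than in vehicle, beside 39.8% of all genes called in either direction. The genes given with values next all had log2 fold changes above 0, and the 3 lower ones are not reported here. These values therefore do not describe the list as a whole. NLRC5, a transcriptional activator of class I genes, averaged 16.3 ± 0.39 CPM with the extract and 11.9 ± 0.29 CPM in vehicle (SD, n = 3 each; log2 fold change 0.46 ± 0.08, SE, adjusted p = 3.2e-06, edgeR). HLA-E averaged 86.3 ± 2.4 CPM and 63.5 ± 3.4 CPM in vehicle (log2 fold change 0.44 ± 0.06, SE, adjusted p = 5.7e-09, edgeR). TAP1, the peptide transporter gene beside PSMB9 on chromosome 6, had a log2 fold change of 0.16 ± 0.09 (SE; adjusted p = 0.14, edgeR) and was singled out after its values were seen.

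Some constitutive core and cap subunits were higher with Menthae Herba at 500 µg/mL. Against 20 µg/mL, 4 of 17 cap subunits were higher and 1, the ATPase PSMC3, lower, and 2 of 14 constitutive core subunits were higher and 0 lower, beside 16.3% of all genes higher and 15.8% lower. PSMD2, a scaffold of the base that docks ubiquitin-carrying substrates, had 304, 295 and 302 CPM at 500 µg/mL, against 253, 246 and 221 CPM at 20 µg/mL. The groups did not overlap (log2 fold change 0.32 ± 0.06, SE, adjusted p = 5.9e-06, edgeR). PSMD13 had 62.9, 60.7 and 63.0 CPM at 500 µg/mL, against 57.4, 52.4 and 47.0 CPM at 20 µg/mL, also apart (log2 fold change 0.25 ± 0.06, SE, adjusted p = 0.00063, edgeR). PSME4, an ATP-independent activator, averaged 255.3 ± 9.4 CPM and 211.8 ± 10.8 CPM at 20 µg/mL (SD, n = 3 each; log2 fold change 0.27 ± 0.05, SE, adjusted p = 2e-05, edgeR).
Against vehicle, 7 of 14 core subunits were higher and 1, PSMA4, was lower, and 6 of 17 cap subunits were higher and 1, PSMD6, lower, where 19.8% of all genes were higher and 20% lower. The 3 that were furthest up were PSMD2, PSMA7 and PSMD13, with log2 fold changes of 0.43 ± 0.06, 0.40 ± 0.09 and 0.39 ± 0.06 (SE; adjusted p = 1.2e-08, 0.0003 and 3.7e-07, edgeR). PSMB5 had 337, 340 and 341 CPM with the extract, against 248, 289 and 267 CPM in vehicle. All 3 extract libraries were higher, with a log2 fold change of 0.34 ± 0.07 (SE; adjusted p = 3.5e-05, edgeR). PSMB6 was higher by 0.17 ± 0.07 on the log2 scale (SE; adjusted p = 0.039, edgeR), and PSMB7 had 0.15 ± 0.07 (SE; adjusted p = 0.099, edgeR).
Of the 7 assembly chaperones, PSMG1 and PSMD5 were lower than vehicle with Menthae Herba at 500 µg/mL and 0 were higher. In that comparison 20% of all genes were lower and 19.8% higher, so this small count does not set the chaperones apart. PSMG1, which pairs with PSMG2 to build the alpha ring, had 44.0, 44.8 and 44.7 CPM at 500 µg/mL of Menthae Herba, against 61.5, 60.5 and 60.1 CPM in vehicle. The ranges were far apart, and the log2 fold change was -0.45 ± 0.07 (SE; adjusted p = 5.7e-07, edgeR). PSMD5, a chaperone of the cap base, was lower by -0.36 ± 0.06 on the log2 scale (SE; adjusted p = 4.7e-06, edgeR). PSMF1 averaged 211.2 ± 4.5 CPM and 241.0 ± 8.2 CPM in vehicle (log2 fold change -0.19 ± 0.04, SE, adjusted p = 0.00039, edgeR), and PSME3, the nuclear activator, was lower by -0.13 ± 0.04 (SE; adjusted p = 0.007, edgeR).

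Of 17 cap subunits, 6 were higher at 500 than at 20 µg/mL of Guibi-tang, 5 with Soyo-san and 2 with Saengmaek-san, by log2 fold changes of 0.11 to 0.23. With Guibi-tang 7 of 48 members were called (14.6%), all higher, beside 8.12% of all genes in either direction and 4.93% of all genes higher. They were 6 of the 17 cap subunits (PSMC2, PSMC4, PSMD1, PSMD3, PSMD7 and PSMD11) and PSMB2 of the core. PSMC2, an ATPase of the base, had 75.9, 72.2 and 73.4 CPM at 500 µg/mL, against 61.4, 63.2 and 65.0 CPM at 20 µg/mL. The groups did not overlap (log2 fold change 0.23 ± 0.06, SE, adjusted p = 0.016, edgeR). The ATPase PSMC4 averaged 124.4 ± 3.4 CPM at 500 µg/mL and 109.2 ± 2.5 CPM at 20 µg/mL (SD, n = 3 each; log2 fold change 0.19 ± 0.05, SE, adjusted p = 0.0065, edgeR), and PSMB2 had a log2 fold change of 0.19 ± 0.06 (SE; adjusted p = 0.025, edgeR). The count fell to 3 without Guibi-tang 500 replicate 1 or 2 or Guibi-tang 20 replicate 2 or 3, and to 4 without Guibi-tang 500 replicate 3. PSMC4 was called in each of these fits, and PSMB2 in none of them.
With Soyo-san 6 of 48 members were called (12.5%), all higher, beside 7.58% of all genes in either direction and 4.24% of all genes higher. They were 5 cap subunits (PSMC2, PSMD1, PSMD2, PSMD11 and PSMD13) and PSMB7, the trypsin-like active site of the core. PSMD13 had 60.05, 58.57 and 61.02 CPM at 500 µg/mL, against 53.2, 51.8 and 48.9 CPM at 20 µg/mL, with no overlap (log2 fold change 0.22 ± 0.06, SE, adjusted p = 0.012, edgeR). PSMB7 had 103, 102 and 99.5 CPM, against 92.2, 87.1 and 82.7 CPM at 20 µg/mL, also apart (log2 fold change 0.22 ± 0.07, SE, adjusted p = 0.048, edgeR). PSMC2 had a log2 fold change of 0.20 ± 0.06 (SE; adjusted p = 0.038, edgeR). Without Soyo-san 500 replicate 1 or 2 or Soyo-san 20 replicate 3 the count was 2, and without Soyo-san 500 replicate 3 or Soyo-san 20 replicate 2 it was 3; it was 13 when only the groups compared were fitted.
With Saengmaek-san 2 of 48 members were called (4.17%), PSMD11 and PSMD1, beside 1.96% of all genes. PSMD11, a lid subunit, averaged 0.16 ± 0.04 above its 20 µg/mL level on the log2 scale (SE; adjusted p = 0.0067, edgeR), and PSMD1, the other base scaffold, 0.16 ± 0.05 (SE; adjusted p = 0.044, edgeR). The count was 1 without Saengmaek-san 500 replicate 1 or any 1 of the libraries at 20 µg/mL, and 0 with no filter on low counts or with only the groups compared.
No member was called for Saposhnikoviae Radix, beside 0.397% of all genes, or for Okbyeongpung-san, beside 0.024% of all genes. In these comparisons 5 and 4 members had an unadjusted edgeR p under 0.05, and DESeq2 called 0 in each. PSMD1 was called higher at 500 than at 20 µg/mL in 4 of the 6 extracts and PSMD11 in 3 of 6, and 26 of the 48 members were called for none.
PSMB9 had a log2 fold change of 500 over 20 µg/mL below 0 in each of the 6 extracts, and it passed the test with Menthae Herba only; the difference between extracts in this dose contrast was not tested. With Guibi-tang it had 3.94, 3.53 and 3.46 CPM at 500 µg/mL, against 4.71, 4.20 and 5.02 CPM at 20 µg/mL, which did not overlap (log2 fold change -0.35 ± 0.13, SE, adjusted p = 0.098, edgeR). With Soyo-san it had 3.69, 3.29 and 3.36 CPM, against 4.28, 4.25 and 4.78 CPM at 20 µg/mL, again apart (log2 fold change -0.37 ± 0.14, SE, adjusted p = 0.099, edgeR). The log2 fold changes were -0.30 ± 0.13 with Saengmaek-san, -0.03 ± 0.13 with Saposhnikoviae Radix and -0.07 ± 0.13 with Okbyeongpung-san (SE; adjusted p = 0.32, 0.99 and 0.99, edgeR). PSMB9 had between 52 and 150 counts per library, so counting error alone is larger for it than for the other members tested.

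**Figure D2:**
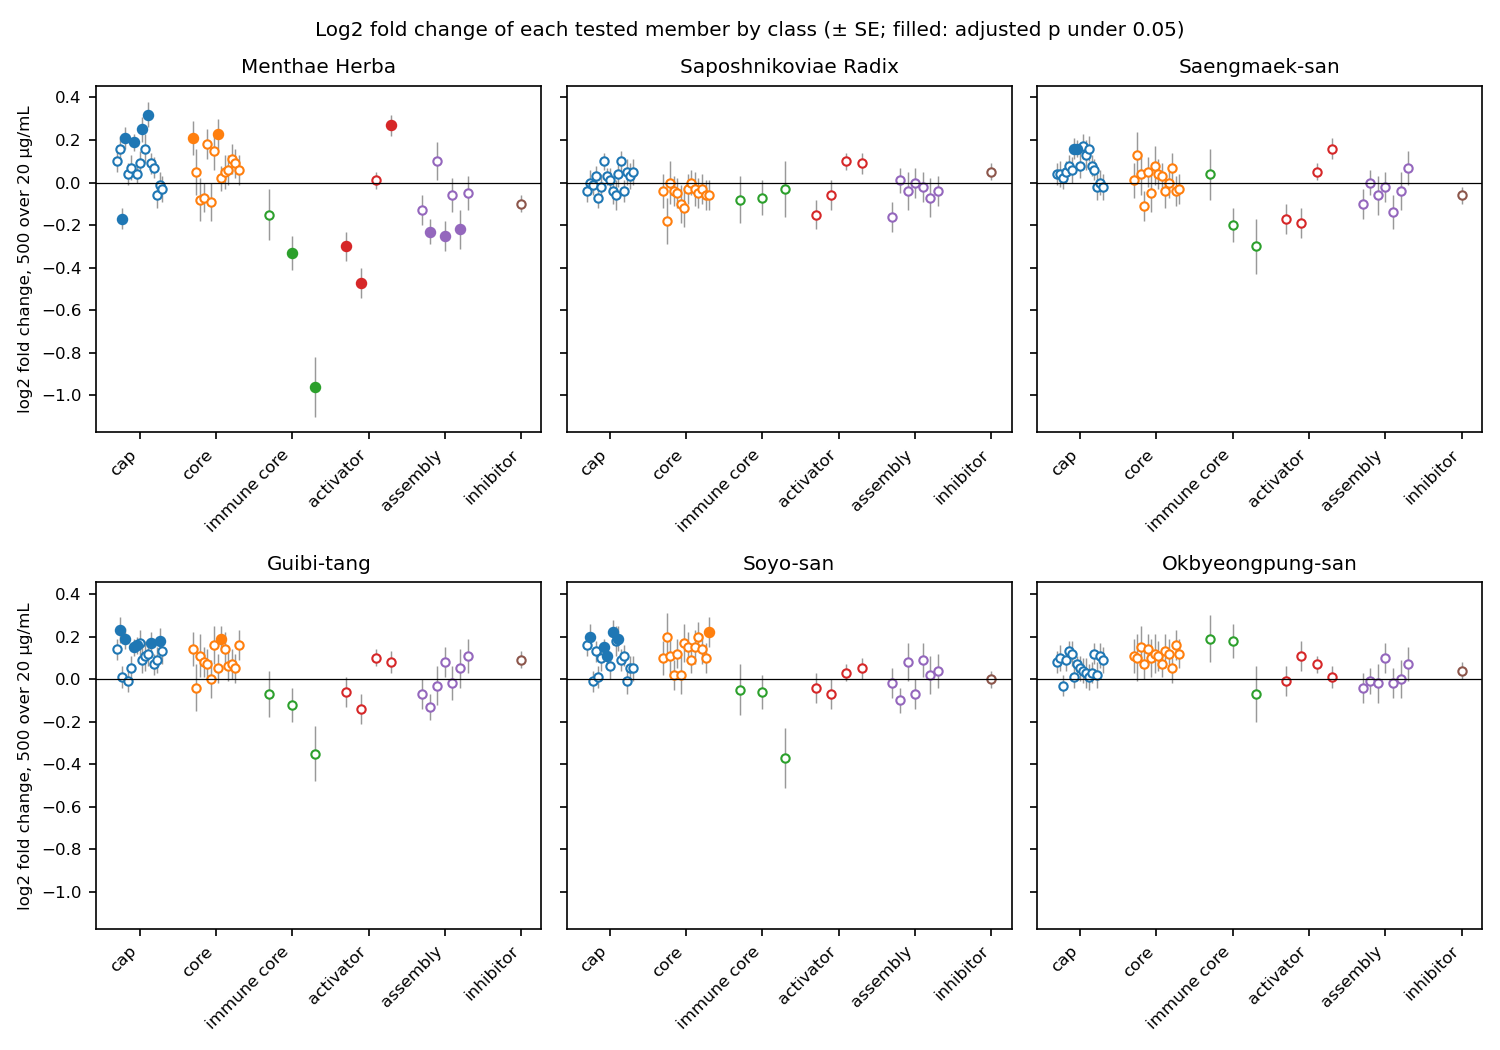
Log2 fold change of 500 over 20 µg/mL for the 48 tested members other than PSMC3IP and PSME3IP1, by class and extract, with bars of ± SE; filled points have an adjusted p under 0.05 in edgeR. PSMB9 stands lowest with Menthae Herba, at -0.96, and filled cap points lie above 0 with Menthae Herba, Saengmaek-san, Guibi-tang and Soyo-san, beside 1 filled cap point below 0 with Menthae Herba.

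Against vehicle, several core and cap subunits were called higher with many extracts and doses. All of these comparisons share the 3 vehicle libraries, so their values stand side by side and do not count as separate evidence. PSMB5 was called higher in 13 of the 18 comparisons with vehicle, PSMD14 in 12, PSMA2, PSMA7 and PSMD13 in 11 each, and PSMD2 in 9. No member was called higher in one and lower in another, and 14 of 48 were called in none. Of all genes, between 3.37% (Saengmaek-san at 20 µg/mL) and 39.8% (Menthae Herba at 500 µg/mL) were called in a single comparison with vehicle. How often genes other than members recurred was not counted, so recurrence cannot be read as particular to the members. PSMB5 was the 1 member called higher at 500 µg/mL of all 6 extracts. PSMB5 had 303, 329 and 304 CPM with Okbyeongpung-san at 500 µg/mL and 325.5, 326.4 and 307.5 CPM with Soyo-san at 500 µg/mL, against 248, 289 and 267 CPM in vehicle. Every library of those groups was above every vehicle library, with log2 fold changes of 0.22 ± 0.07 and 0.26 ± 0.07 (SE; adjusted p = 0.027 and 0.0035, edgeR). With Saposhnikoviae Radix and Guibi-tang at 500 µg/mL, the lowest PSMB5 libraries, at 287.1 and 284.9 CPM, overlapped vehicle. With Saposhnikoviae Radix, PSMB5 averaged 320.7, 326.1 and 312.5 CPM at 20, 100 and 500 µg/mL.
At 500 µg/mL, Soyo-san had 19 of 48 members called (39.6%), 16 higher and 3 lower, beside 21.5% of all genes. PSMA2, an alpha ring subunit, had 41.5, 44.2 and 38.5 CPM, against 31.3, 32.2 and 29.1 CPM in vehicle. The groups were apart, with a log2 fold change of 0.42 ± 0.11 (SE; adjusted p = 0.0053, edgeR). PSMD14, whose promoter with overlapping CCAAT letters is printed above, had 82.3, 74.7 and 76.6 CPM, against 60.3, 60.1 and 60.4 CPM in vehicle (log2 fold change 0.37 ± 0.07, SE, adjusted p = 0.00011, edgeR). PSMD13 was higher by 0.34 ± 0.06 (SE; adjusted p = 3e-05, edgeR). PSMB9 was lower by -0.38 ± 0.14 (SE; adjusted p = 0.04, edgeR), a call that was lost in 5 of the 6 fits without 1 library, with the MALAT1 class as a covariate (adjusted p = 0.12), with no filter (0.078) and in DESeq2 (0.056). PSMF1 and PSME3IP1, a protein that binds PSME3, were each lower by -0.17 (SE 0.04 and 0.05; adjusted p = 0.0042 and 0.011, edgeR), and the PSMF1 call was lost with the MALAT1 class as a covariate (adjusted p = 0.06).
Guibi-tang at 500 µg/mL had 12 of 48 members called (25.0%), all higher, beside 13.4% of all genes. PSMD14, PSMA7 and PSMA1 were furthest up, with log2 fold changes of 0.31 ± 0.07, 0.31 ± 0.09 and 0.27 ± 0.08 (SE; adjusted p = 0.0015, 0.014 and 0.018, edgeR). Saengmaek-san had 10 (20.8%), 8 higher and 2 lower, beside 12.6% of all genes, led by PSMA2 at 0.36 ± 0.11, PSMA7 at 0.28 ± 0.09 and PSMD14 at 0.28 ± 0.07 (log2, SE; adjusted p = 0.028, 0.03 and 0.0059, edgeR). The lower ones there were PSME3IP1 at -0.21 ± 0.05 and PSMF1 at -0.17 ± 0.04 (SE; adjusted p = 0.0028 and 0.0075, edgeR).
Okbyeongpung-san at 500 µg/mL had 9 members called (18.8%), all higher, beside 9.11% of all genes, with PSMA2 at 0.43 ± 0.11, PSMA7 at 0.34 ± 0.09 and PSMA5 at 0.33 ± 0.07 (log2, SE; adjusted p = 0.012, 0.012 and 0.0028, edgeR). Saposhnikoviae Radix had 4 (8.33%), 3 higher and 1 lower, beside 5.8% of all genes. These were PSMD2 at 0.27 ± 0.06, PSMB5 at 0.22 ± 0.07, PSMD3 at 0.17 ± 0.05 and PSME3IP1 at -0.17 ± 0.05 (log2, SE; adjusted p = 0.002, 0.034, 0.017 and 0.037, edgeR).
These counts rested in part on single libraries. Without Vehicle replicate 1 they were 21 for Menthae Herba, 14 for Soyo-san, 6 for Guibi-tang, 4 for Saengmaek-san, 3 for Okbyeongpung-san and 1 for Saposhnikoviae Radix at 500 µg/mL. Without Vehicle replicate 3 they were 7 for Guibi-tang, 3 for Okbyeongpung-san and 2 for Saposhnikoviae Radix. Leaving out Guibi-tang 500 replicate 1 left 3, leaving out Okbyeongpung-san 500 replicate 2 or 3 left 1 or 4, and leaving out Saposhnikoviae Radix 500 replicate 3 left 1. Without Vehicle replicate 1, PSMA7 was no longer called with Saengmaek-san, Guibi-tang or Okbyeongpung-san (edgeR adjusted p = 0.21, 0.14 and 0.1), nor PSMA2 with Saengmaek-san (0.07), nor PSMB5 and PSMD3 with Saposhnikoviae Radix (0.27 each). For Menthae Herba at 500 µg/mL against vehicle, the alternatives were run on PSMD2, PSMA7, PSMD13, PSMB9, PSME2 and PSMG1. These calls were kept in every fit tried. The MALAT1 class could hardly change them, as both groups lie wholly in its lower class. The other members named were not followed one by one.

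**Figure D3:**
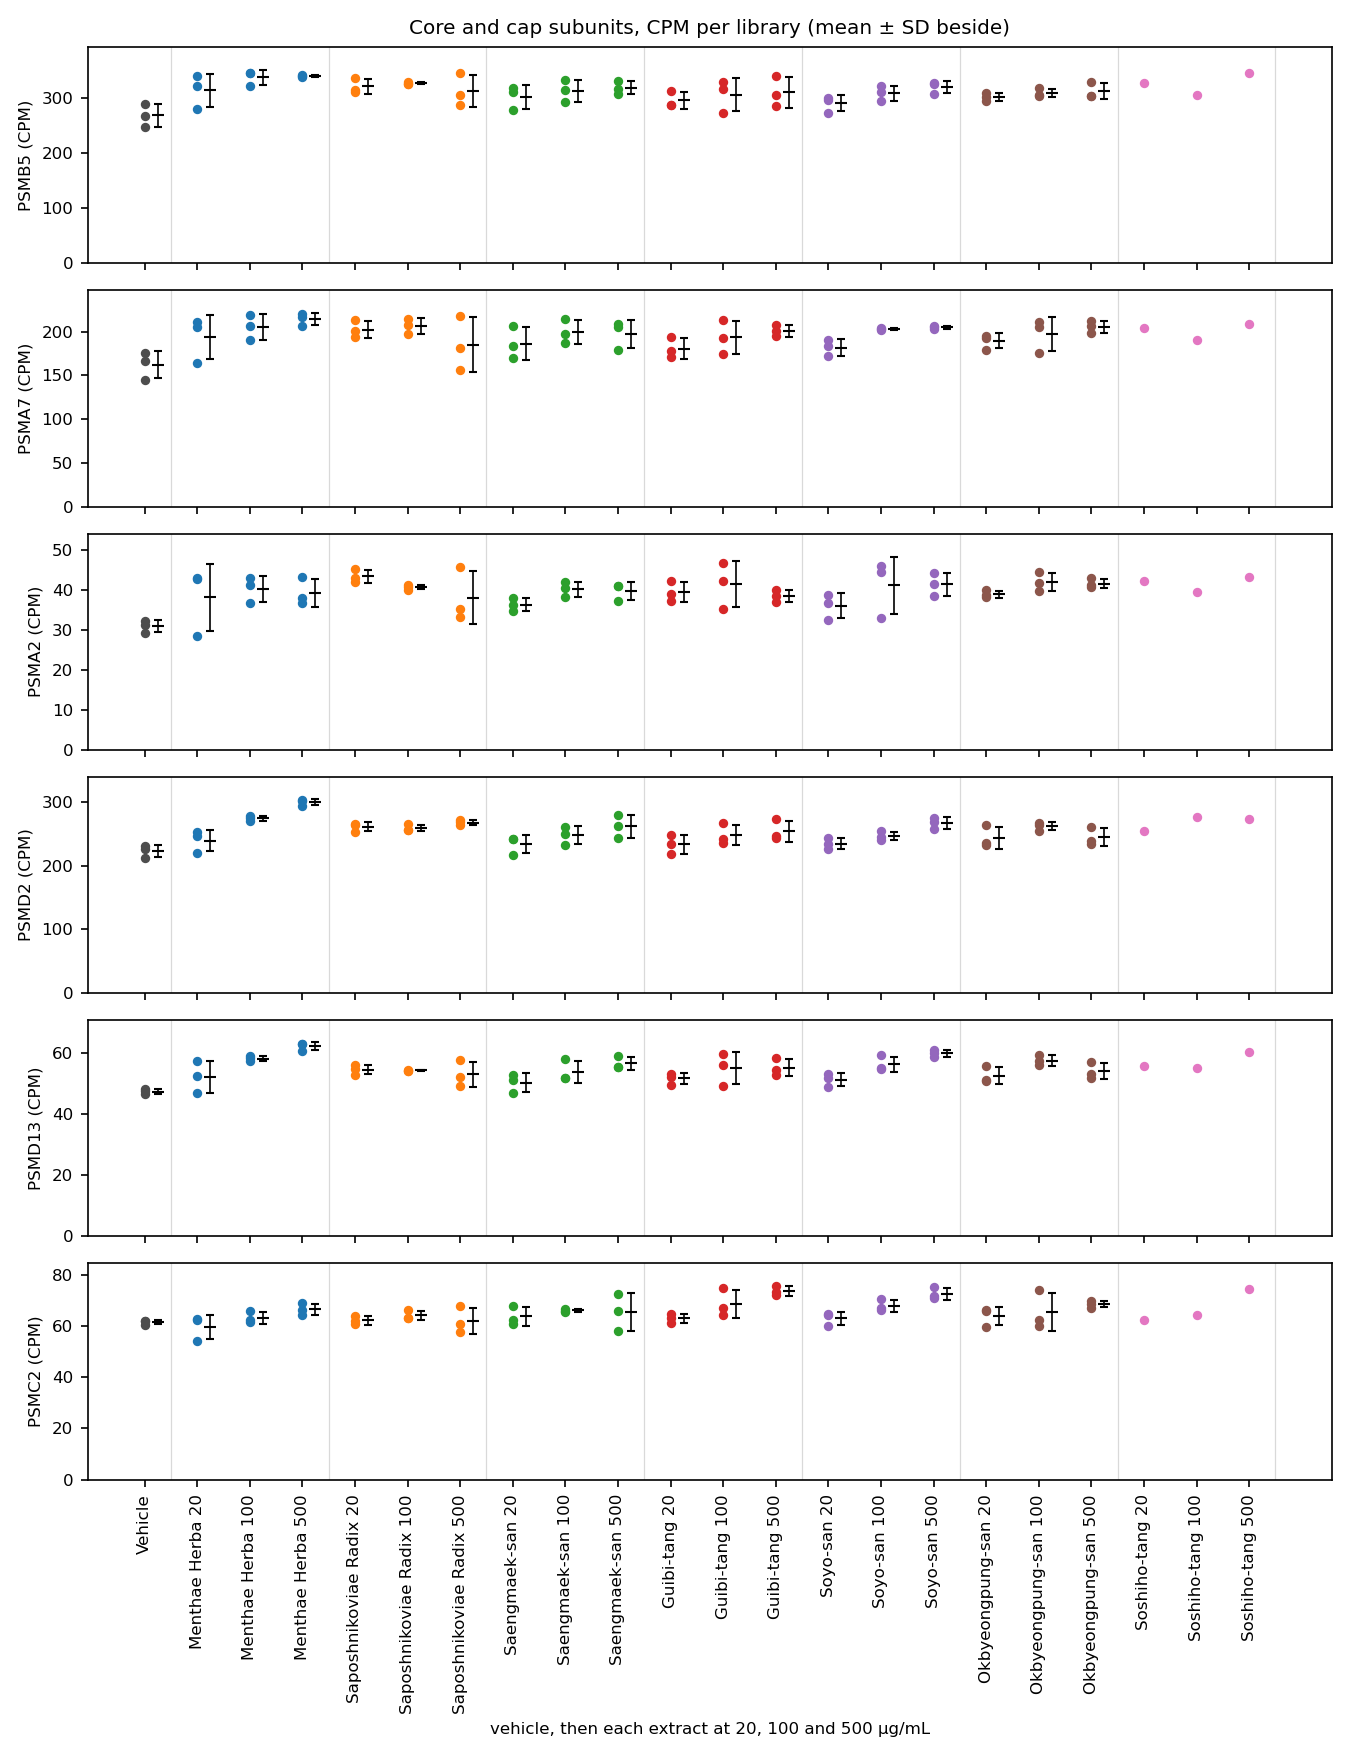
CPM of PSMB5, PSMA7, PSMA2, PSMD2, PSMD13 and PSMC2 in each library, by vehicle and then each extract at 20, 100 and 500 µg/mL; bars beside the points are mean ± SD of 3 libraries, and Soshiho-tang has 1 library per dose. PSMB5 lies at 248 to 289 CPM in vehicle and above 300 CPM in all 3 libraries of Menthae Herba, Saengmaek-san, Soyo-san and Okbyeongpung-san at 500 µg/mL.

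At 100 µg/mL, PSMA2 had the highest log2 fold change over vehicle among the members called with each of the 6 extracts. Menthae Herba had 13 (27.1%), 11 higher and 2 lower, beside 14% of all genes. PSMA2 and PSMA7 led with 0.38 ± 0.11 and 0.34 ± 0.09, and PSMG1 and PSMD5 were lower by -0.21 ± 0.07 and -0.17 ± 0.06 (log2, SE; adjusted p = 0.018, 0.0077, 0.035 and 0.047, edgeR). Okbyeongpung-san had 13 (27.1%), 10 higher and 3 lower, beside 12.9% of all genes, with PSMA2 at 0.44, PSMD14 at 0.35, PSMF1 at -0.19 and PSME3IP1 at -0.18 on the log2 scale. Saposhnikoviae Radix had 7 (14.6%), all higher, beside 5.47%, with PSMA2 at 0.40 and PSMA7 at 0.35, and Soyo-san had 7 (14.6%), 6 of them higher, beside 8.31%, with PSMA2 at 0.42, PSMA7 at 0.32 and PSMF1 at -0.19. Guibi-tang had 5 (10.4%), all higher, beside 7.96%, with PSMA2 at 0.42 and PSMA5 at 0.28, and Saengmaek-san had 4 (8.33%), all higher, beside 6.05%, with PSMA2 at 0.38 and PSMA7 at 0.30.
At 20 µg/mL Saposhnikoviae Radix had 8 (16.7%), 7 higher, beside 7.19% of all genes, with PSMA2 at 0.49, PSMA7 at 0.32 and PSMF1 at -0.14. Menthae Herba had 5 (10.4%), beside 6.83%, with PSMG3, a chaperone of the alpha ring, at 0.29, PSMB5 at 0.23, PSMD12 at -0.19, PSME4 at -0.18 and PSME3 at -0.13. Okbyeongpung-san had 3 (6.25%), beside 6.99%, with PSMD14 at 0.24, PSMF1 at -0.16 and PSME3IP1 at -0.16, and Soyo-san had 1 (2.08%), PSMF1 at -0.16, beside 3.88% (all log2). Saengmaek-san and Guibi-tang had 0 at this dose, beside 3.37% and 4.38% of all genes, where 11 and 9 members had an unadjusted edgeR p under 0.05 and DESeq2 called 2 in each.
PSMA2 showed no order by dose with Saposhnikoviae Radix. It had 31.3, 32.2 and 29.1 CPM in vehicle, 45.1, 43.0 and 41.9 CPM at 20 µg/mL, 40.8, 41.1 and 40.0 CPM at 100 µg/mL and 45.6, 33.2 and 35.2 CPM at 500 µg/mL. All 9 extract libraries lay above vehicle, and the values at 500 µg/mL spanned those of both lower doses. PSMA2, PSMA5, PSMA7, PSMB5 and PSMD14 were called in none of the 6 comparisons of 500 with 20 µg/mL, and their log2 fold changes there lay between -0.18 and 0.20. The vehicle libraries have a code number of their own, and a difference between codes cannot be told apart from treatment here.
Single libraries weighed more at these doses. Without Vehicle replicate 1, the counts at 100 µg/mL were 6 for Okbyeongpung-san, 4 for Soyo-san, 3 for Menthae Herba and Guibi-tang and 0 for Saposhnikoviae Radix and Saengmaek-san. At 20 µg/mL they were 1 for Saposhnikoviae Radix and 0 for the other 5 extracts. Without Vehicle replicate 2, they were 7 for Okbyeongpung-san and 1 for Saengmaek-san at 100 µg/mL, and 5 for Saposhnikoviae Radix and 0 for Soyo-san at 20 µg/mL. Without Vehicle replicate 3, they were 4 for Saposhnikoviae Radix and 2 for Saengmaek-san and Guibi-tang at 100 µg/mL, and 1 for Okbyeongpung-san at 20 µg/mL.
Leaving out an extract library moved counts as well. At 100 µg/mL, Menthae Herba had 7 without replicate 1 and 6 without replicate 2, and Okbyeongpung-san had 7 without either. Saposhnikoviae Radix had 2, 3 and 2 without replicate 1, 2 and 3, Saengmaek-san 0, 0 and 7, and Soyo-san 3 and 1 without replicate 1 and 3. Guibi-tang had 0 without replicate 2 and 11 without replicate 3. At 20 µg/mL, Saposhnikoviae Radix had 1, 4 and 4 without replicate 1, 2 and 3, Menthae Herba 2 and 1 without replicate 1 and 2, Okbyeongpung-san 1 and 0 without replicate 1 and 3, Soyo-san 0 without replicate 1 or 3, and Guibi-tang 1 without replicate 1.

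**Figure D4:**
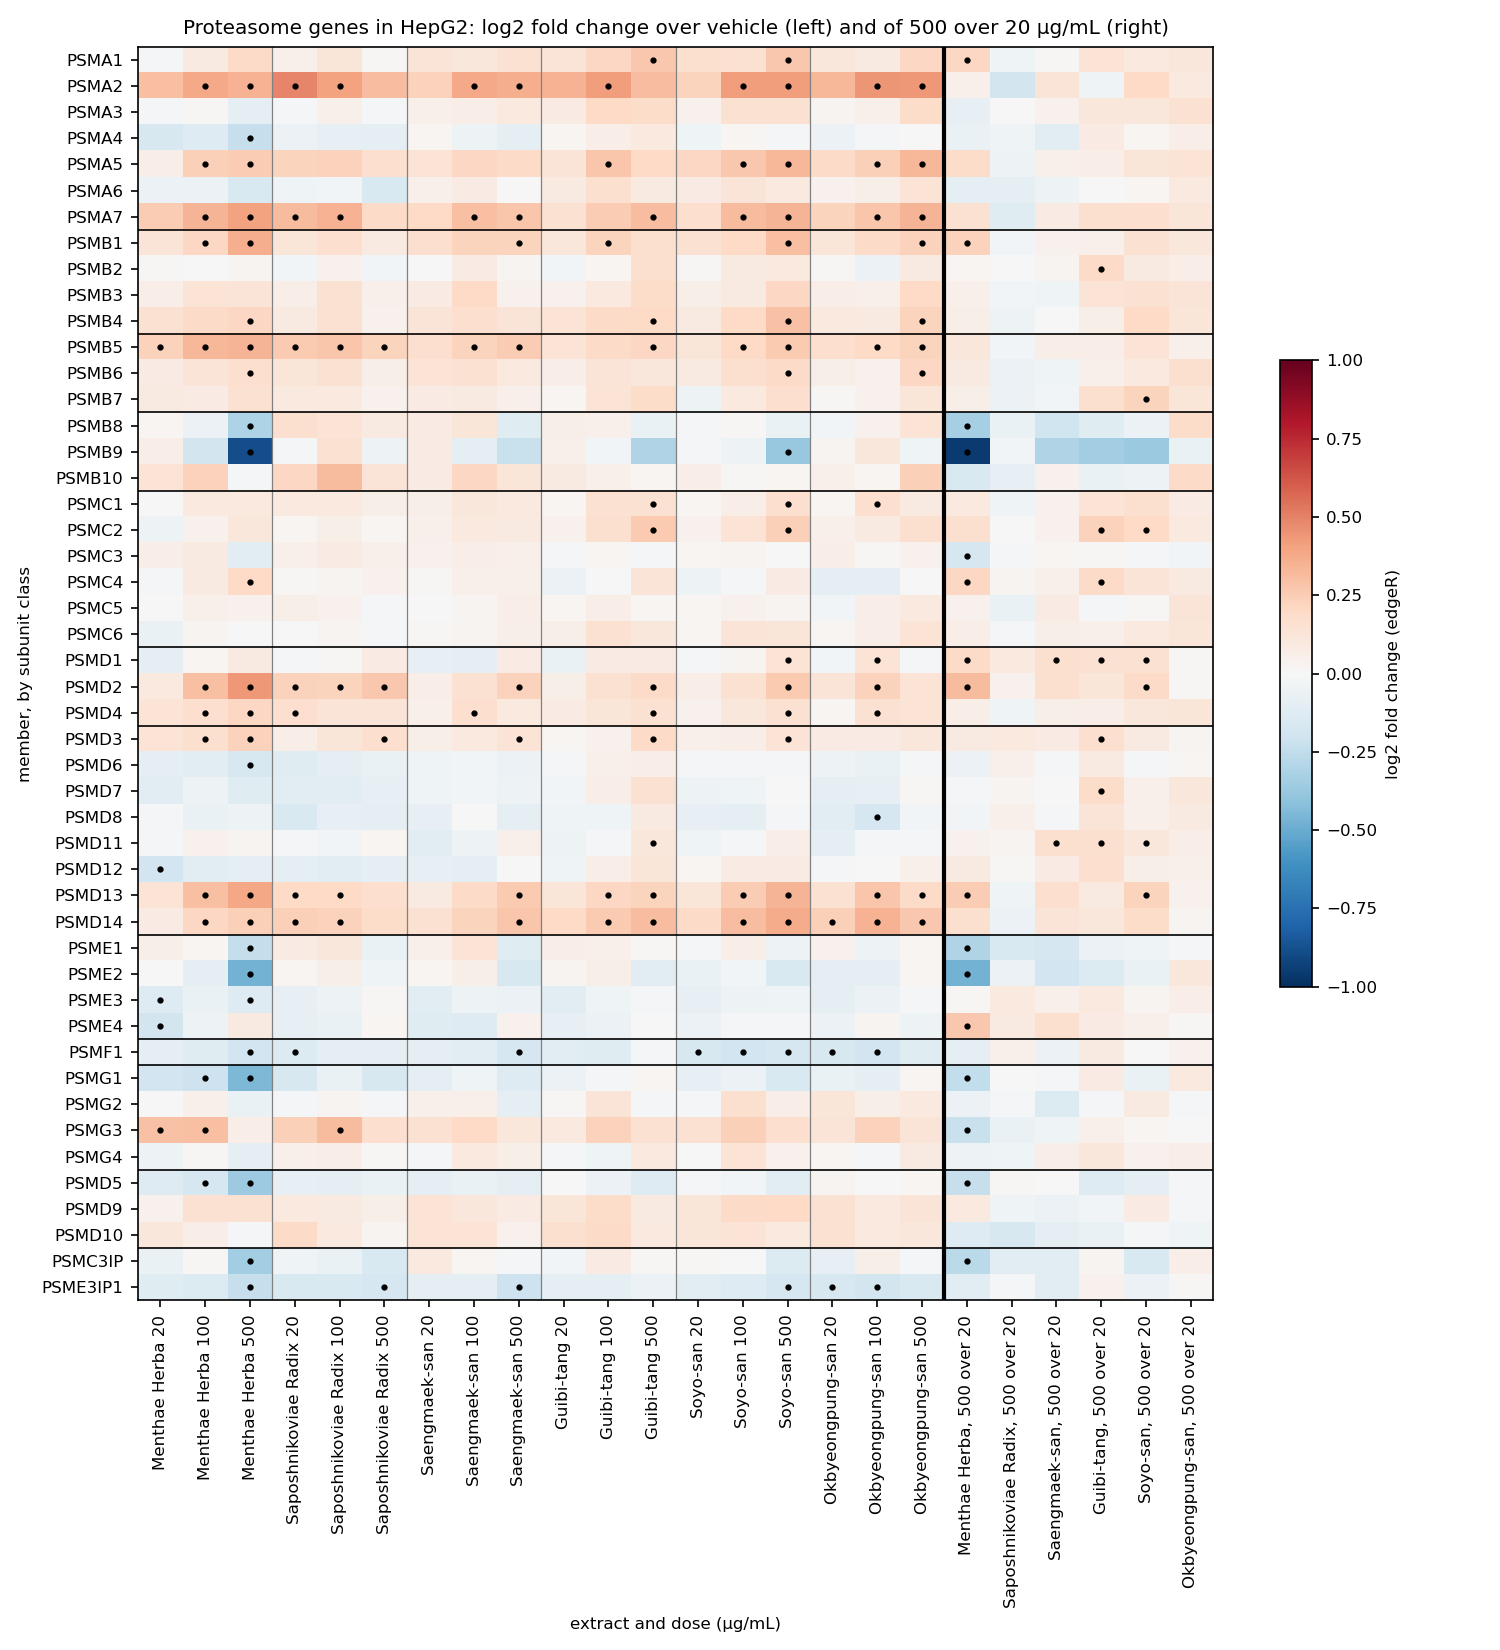
Log2 fold change of the 48 tested members, in rows by subunit class, over vehicle for 6 extracts at 20, 100 and 500 µg/mL (left) and of 500 over 20 µg/mL (right), from edgeR; dots mark an adjusted p under 0.05. Rows PSMA2, PSMA7, PSMB5, PSMD13 and PSMD14 are above 0 in all 18 columns over vehicle, while PSMB9, PSME1, PSME2 and PSMB8 are marked below 0 with Menthae Herba at 500 µg/mL.

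PSMF1 was the member most often lower than vehicle, in 8 of 18 comparisons, with log2 fold changes from -0.19 to -0.02. PSMF1 had 249.0, 241.2 and 232.6 CPM in vehicle, and with Soyo-san 214, 217 and 213 CPM at 20 µg/mL, 209, 219 and 207 CPM at 100 µg/mL and 210.5, 216.1 and 217.0 CPM at 500 µg/mL. All 9 Soyo-san libraries were below all vehicle libraries, and the doses overlapped. PSMF1 was called in none of the comparisons of 500 with 20 µg/mL. PSME3IP1 was lower than vehicle in 6 of 18 comparisons. PSMC3IP, a PSMC3-interacting protein that acts in meiotic recombination and is no subunit, was lower with Menthae Herba at 500 µg/mL. Its log2 fold change over vehicle was -0.35 ± 0.09 (SE, adjusted p = 0.0014, edgeR).

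Extracts that carry the same first code number form 3 pairs, which were compared at 500 µg/mL. Menthae Herba differed from Saposhnikoviae Radix in 12 of 48 members (25.0%), 5 higher and 7 lower, beside 32.1% of all genes. PSMB9 had 2.63, 2.18 and 2.43 CPM with Menthae Herba, against 4.64, 3.61 and 4.65 CPM with Saposhnikoviae Radix. No libraries overlapped, and the log2 difference was -0.84 ± 0.14 (SE; adjusted p = 3.1e-06, edgeR). PSME2 had 125, 133 and 122 CPM with Menthae Herba, against 195, 156 and 160 CPM with Saposhnikoviae Radix, also apart (log2 difference -0.43 ± 0.07, SE, adjusted p = 5.8e-07, edgeR). PSMB8 had 18.7, 16.5 and 15.1 CPM with Menthae Herba, against 23.4, 21.9 and 21.1 CPM with Saposhnikoviae Radix (log2 difference -0.40 ± 0.08, SE, adjusted p = 9.4e-05, edgeR), and PSME3 was lower by -0.14 ± 0.04 (SE; adjusted p = 0.0032, edgeR). PSMB1, a non-catalytic beta subunit, and PSMD13 were higher with Menthae Herba, by 0.27 ± 0.07 and 0.23 ± 0.06 on the log2 scale (SE; adjusted p = 0.002 each, edgeR). Both herbs have all their libraries in the lower MALAT1 class.
Saengmaek-san was below Guibi-tang in 2 of 48 members (4.17%) and above in 0, beside 4.65% of all genes. They were PSMD7, the lid partner of PSMD14, by -0.20 ± 0.06, and PSMF1, by -0.15 ± 0.04, on the log2 scale (SE; adjusted p = 0.041 and 0.043, edgeR). The count was 0 without Saengmaek-san 500 replicate 1 or Guibi-tang 500 replicate 1 or 2, 1 without Guibi-tang 500 replicate 3, and 0 with only these groups fitted. Soyo-san was above Okbyeongpung-san in PSMD1 alone, 1 of 48 (2.08%), beside 7.49% of all genes, by 0.16 ± 0.04 on the log2 scale (SE; adjusted p = 0.015, edgeR). That count was 0 without Soyo-san 500 replicate 1 or Okbyeongpung-san 500 replicate 3, and 6 with only these groups fitted.

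Summed over a class, differences from vehicle at 500 µg/mL ranged up to 16.7% higher, for the constitutive beta ring, and 22.1% lower, for PSME1 with PSME2, both with Menthae Herba. The beta ring averaged 1019 ± 16 CPM with Menthae Herba and 873 ± 45 CPM in vehicle, and the alpha ring 820 ± 7 CPM with Okbyeongpung-san and 708 ± 9 CPM in vehicle (SD, n = 3 each). The 17 cap subunits together averaged 1861 ± 24 CPM in vehicle, 1874 ± 57 CPM at 20 µg/mL and 2024 ± 11 CPM at 500 µg/mL of Menthae Herba (SD, n = 3 each). With Guibi-tang the cap sum was 1869 ± 15 CPM at 20 µg/mL and 2040 ± 49 CPM at 500 µg/mL, and with Soyo-san 1879 ± 8 and 2028 ± 15 CPM (SD, n = 3 each). These sums at 500 µg/mL were 2012 to 2033, 1994 to 2093 and 2012 to 2042 CPM per library, all above the 1843 to 1889 CPM of vehicle. PSME1 and PSME2 together averaged 252.8 ± 8.7 CPM at 500 µg/mL of Menthae Herba and 324.5 ± 4.4 CPM in vehicle, and PSMB8, PSMB9 and PSMB10 together 31.5 ± 1.9 CPM and 37.8 ± 1.8 CPM (SD, n = 3 each).
The share of each immune subunit within its pair, per kilobase of exon, was a description with no test. It uses the same lengths of all annotated exons, so the size of a share depends on the annotation. PSMB9 made up 2.68% ± 0.27 of PSMB9 plus PSMB6 in vehicle, 2.69% ± 0.27 at 20 µg/mL, 2.18% ± 0.14 at 100 µg/mL and 1.3% ± 0.16 at 500 µg/mL of Menthae Herba (SD, n = 3 each). The libraries at 500 µg/mL, at 1.14% to 1.44%, were below the 1.72% to 2.01% of Soyo-san at the same dose and below every other group. PSMB8 made up 4.39% ± 0.32 of PSMB8 plus PSMB5 in vehicle and 3.84% ± 0.25, 3.37% ± 0.07 and 2.83% ± 0.32 at 20, 100 and 500 µg/mL of Menthae Herba (SD, n = 3 each). At 500 µg/mL the share was 3.33% to 3.57% with Saengmaek-san, 3.41% to 3.6% with Soyo-san and 3.43% to 3.88% with Guibi-tang, also below all vehicle libraries, at 4.2% to 4.76%. Lower doses were below vehicle too, with 3.67% to 4.12% for Menthae Herba and 4.05% to 4.15% for Saposhnikoviae Radix at 20 µg/mL. So were all libraries of both herbs at 100 µg/mL and of Soshiho-tang at each dose. PSMB5, the other gene of this pair, had its lowest group mean in vehicle, at 268.1 CPM. PSMB10 made up 10.6% ± 0.25 of PSMB10 plus PSMB7 at 500 µg/mL of Menthae Herba and 11.8% ± 0.86 in vehicle (SD, n = 3 each), and the ranges of 10.4% to 10.9% with the extract and 10.8% to 12.4% in vehicle overlapped.

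Soshiho-tang had 1 library per dose and no test, and the intervals are exact Poisson intervals of 95% that cover counting error only. PSMB9 had 4.25 CPM (3.47 to 5.14) at 20 µg/mL, 3.79 (3.09 to 4.61) at 100 µg/mL and 3.66 (2.97 to 4.46) at 500 µg/mL, and these intervals overlapped. PSME2 had 171.9 CPM (166.8 to 177.2) at 20 µg/mL, 162.2 (157.4 to 167.1) at 100 µg/mL and 150.5 (145.9 to 155.3) at 500 µg/mL. The PSME2 interval at 500 µg/mL lay below that at 20 µg/mL. PSMD14 had 68.0 CPM (64.8 to 71.3) at 20 µg/mL, 76.2 (72.9 to 79.6) at 100 µg/mL and 83.1 (79.7 to 86.6) at 500 µg/mL, the largest upward log2 ratio of 500 over 20 µg/mL among the members, at 0.29. The median log2 ratio over the 48 members was 0.05, beside -0.00 over all genes tested.

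Lists of genes that act with the proteasome had called members with Menthae Herba in both directions, beside 39.8% of all genes called at 500 µg/mL against vehicle. NFE2L1, the transcription factor that raises proteasome genes when the particle is inhibited, averaged 304.5 ± 10.0 CPM in vehicle, and 315.0 ± 20.2 CPM at 20 µg/mL and 397.7 ± 5.2 CPM at 500 µg/mL of Menthae Herba (SD, n = 3 each). Its log2 fold change was 0.34 ± 0.04 over 20 µg/mL and 0.39 ± 0.04 over vehicle (SE; adjusted p = 1.1e-08 and 2.6e-10, edgeR). Of the 8 genes of its pathway, 3 were higher and 1 lower with Menthae Herba at 500 µg/mL than in vehicle, and VCP, an ATPase that extracts NFE2L1 from the endoplasmic reticulum, was higher by 0.27 ± 0.07 (SE; adjusted p = 0.0011, edgeR). Between 500 and 20 µg/mL the list had 1 gene lower with Guibi-tang, SEL1L, and 0 called with Saposhnikoviae Radix, Saengmaek-san, Soyo-san or Okbyeongpung-san.
Of 16 proteasome-associated factors, 2 were higher and 6 lower with Menthae Herba at 500 µg/mL than in vehicle, where 19.8% of all genes were higher and 20% lower. POMP, which matures the core, averaged 43.5 ± 1.3 CPM with the extract and 33.1 ± 1.0 CPM in vehicle (SD, n = 3 each; log2 fold change 0.40 ± 0.12, SE, adjusted p = 0.0061, edgeR). UCHL5, a deubiquitinase of the cap, was lower by -0.30 ± 0.06 (SE; adjusted p = 3.3e-05, edgeR). POMP was also higher than vehicle with Guibi-tang at 0.35 ± 0.12 and Soyo-san at 0.39 ± 0.12 at 500 µg/mL (log2, SE; adjusted p = 0.039 and 0.013, edgeR). With Guibi-tang, 4 of the 16 were higher at 500 than at 20 µg/mL, beside 4.93% of all genes higher, among them ADRM1, a ubiquitin receptor of the cap, by 0.25 ± 0.07 (log2, SE; adjusted p = 0.016, edgeR). UBA6, a ubiquitin-activating enzyme, averaged 58.1 ± 2.7 CPM with Menthae Herba at 500 µg/mL and 45.2 ± 3.0 CPM in vehicle (SD, n = 3 each; log2 fold change 0.36 ± 0.09, SE, adjusted p = 0.00072, edgeR).
Targets of NRF2, the transcription factor that binds antioxidant response elements, were among those called at 500 µg/mL against vehicle. Of 9 tested, 6 were higher with Menthae Herba, Soyo-san, Guibi-tang and Saengmaek-san, 5 with Saposhnikoviae Radix and 4 with Okbyeongpung-san, while 2 were lower with Menthae Herba and Soyo-san, 1 with Okbyeongpung-san and Saengmaek-san, and 0 with the other two. Of all genes, 39.8% were called in either direction with Menthae Herba, 21.5% with Soyo-san, 13.4% with Guibi-tang, 12.6% with Saengmaek-san, 9.11% with Okbyeongpung-san and 5.8% with Saposhnikoviae Radix. With Menthae Herba 19.8% of all genes were higher and 20% lower. The targets named next were among those higher, and those lower are not reported here. SLC7A11, a cystine transporter, averaged 120.9 ± 4.9 CPM with Menthae Herba and 43.2 ± 3.1 CPM in vehicle (SD, n = 3 each; log2 fold change 1.48 ± 0.08, SE, adjusted p = 2.6e-20, edgeR). NQO1, a quinone reductase, was higher with Guibi-tang by 0.67 ± 0.05 and with Soyo-san by 0.58 ± 0.05 (log2, SE; adjusted p = 2.1e-16 and 3.1e-14, edgeR). No called change of a member reached those of SLC7A11: over all 27 comparisons, 191 results for members were called and 3 of them had an absolute log2 fold change of at least 0.5, all of PSMB9 with Menthae Herba at 500 µg/mL.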

How the data were processed

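The authors deposited expected counts per gene, made with RSEM 1.3.3; the submitters' processing notes also name FastQC 0.11.9, Trim Galore 0.6.5, STAR 2.7.3a and the GRCh38 build, and the labels' protocols name a directional kit. The annotation release and the strand setting are named in none of the sources used. Of the nonzero deposited values 71.9% are whole numbers; reads shared between genes are split by RSEM, so levels of overlapping genes carry that uncertainty. Totals per library had a median of 25862356.

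Symbols, gene types and exon lengths came from GENCODE v29 and the table of gene names. Counts were rounded and genes kept by filterByExpr with a minimum count of 10, which left 16644 genes. edgeR 4.0.16 (R 4.3.3, limma 3.58.1) was fitted to 57 libraries in 19 groups with TMM scaling and the quasi-likelihood test, with Benjamini-Hochberg adjustment over all genes and a threshold of 0.05. The steps were tested on simulated data. Each SE is the absolute log2 fold change divided by the square root of its F statistic. CPM used TMM library sizes. Soshiho-tang, with 1 library per dose, entered no test. DESeq2 1.42.0, RLE scaling, no filter, fits of the compared groups only, a replicate block, the MALAT1 class and leaving out each library were the alternatives. Members named by rule were the catalytic and immune subunits, PSME1 to PSME4 and PSMF1, with the members of largest log2 fold change called in each comparison; where a group is summarised by counts, not each is repeated. Members and lists were chosen with earlier results of these data known. Ethanol extracts and wortmannin were not analysed here. Some genes of these lists are not reported here.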

Additional observations from a re-analysis of the deposited data

Results flagged for a closer look

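Direct tests between 2 extracts at 500 µg/mL called 15 members. In each pair the share of members called was below that of all genes. It was 25.0% beside 32.1% for Menthae Herba against Saposhnikoviae Radix. For Saengmaek-san against Guibi-tang it was 4.17% beside 4.65%, and for Soyo-san against Okbyeongpung-san 2.08% beside 7.49%. Menthae Herba was lower than Saposhnikoviae Radix by a log2 difference of -0.84 for PSMB9, -0.43 for PSME2, -0.40 for PSMB8, -0.29 for PSMG1, -0.28 for PSMD5, -0.15 for PSMC3 and -0.14 for PSME3. It was higher by 0.27 for PSMB1, 0.23 for PSMD13, 0.17 for PSMB4, 0.16 for PSMD2 and 0.15 for PSMC4 on the log2 scale. Saengmaek-san differed from Guibi-tang by -0.20 for PSMD7 and -0.15 for PSMF1 on the log2 scale, and Soyo-san from Okbyeongpung-san by 0.16 for PSMD1. The extracts of each pair share their first code number.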

How the results depend on the processing

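Under RLE scaling, 0 of the 27 counts of members called moved by more than 1.5 times. With only the groups compared in the fit, the count at 500 against 20 µg/mL was 0 for Saengmaek-san, 4 for Guibi-tang and 13 for Soyo-san; against vehicle it was 1 for Saposhnikoviae Radix and 5 for Saengmaek-san at 500 µg/mL, 2 for Saengmaek-san, 1 for Guibi-tang and 7 for Okbyeongpung-san at 100 µg/mL, and 0 for Menthae Herba and 1 for Guibi-tang at 20 µg/mL; between extracts it was 0 for Saengmaek-san against Guibi-tang and 6 for Soyo-san against Okbyeongpung-san. With no filter it was 0 for Saengmaek-san and 3 for Guibi-tang at 500 against 20 µg/mL, 7 and 10 for them at 100 µg/mL and 2 each at 20 µg/mL against vehicle, and 0 for Soyo-san against Okbyeongpung-san. DESeq2 gave 7 for Saengmaek-san and 9 for Guibi-tang at 100 µg/mL, and 2, 2 and 5 for Saengmaek-san, Guibi-tang and Okbyeongpung-san at 20 µg/mL. With the MALAT1 class as a covariate it was 9 for Saengmaek-san at 100 µg/mL, and 1 for Guibi-tang and for Saengmaek-san, 3 for Soyo-san and 5 for Okbyeongpung-san at 20 µg/mL. The cause was not tested.

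Leaving out 1 library gave ranges at 500 against 20 µg/mL of 14 to 19 for Menthae Herba, 1 to 2 for Saengmaek-san, 3 to 5 for Guibi-tang and 2 to 4 for Soyo-san. Against vehicle at 500 µg/mL they were 21 to 26 for Menthae Herba, 1 to 5 for Saposhnikoviae Radix, 4 to 10 for Saengmaek-san, 3 to 10 for Guibi-tang, 14 to 19 for Soyo-san and 1 to 7 for Okbyeongpung-san. At 100 µg/mL, in the same order of extracts, they were 3 to 11, 0 to 5, 0 to 7, 0 to 11, 1 to 8 and 6 to 9, and at 20 µg/mL 0 to 7, 1 to 7, 0 to 0, 0 to 1, 0 to 1 and 0 to 3. Between extracts they were 10 to 16 for Menthae Herba against Saposhnikoviae Radix, 0 to 3 for Saengmaek-san against Guibi-tang and 0 to 1 for Soyo-san against Okbyeongpung-san.

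Libraries of the same replicate number were not treated as pairs: in no comparison was every same-numbered pair's correlation over 0.1. That does not exclude a weak pairing, so a replicate block was fitted as well. With a replicate block the count for Guibi-tang at 20 µg/mL against vehicle was 1, and no other count moved by more than 1.5 times. Of 76 named results, 76 kept their call under RLE scaling and the block, 75 in DESeq2, 69 with the MALAT1 class, 63 with no filter and 57 with only the groups compared, and 0 reversed. The MALAT1 class could hardly move results that compare vehicle and the herbs, which lie wholly in its lower class. PSMB9, with 52 to 150 counts per library, is the member whose precision depth limits most.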
